A study of Mus musculus with 4 samples.

Results

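The protein kinase C genes examined here were the 8 listed symbols Prkca, Prkcb, Prkcd, Prkce, Prkch, Prkcq, Prkci and Prkcz, out of 24421 genes in each table. They were picked by gene name, with earlier results of these data known. All 8 symbols were found in all 4 tables, and further kinases related to them were not analysed here. Total RNA was measured in 2 excitatory libraries and 2 inhibitory libraries of mouse brain neurons, for a study of Noonan syndrome mice and their ERK pathway. The excitatory libraries hold αCaMKII-positive neurons and the inhibitory libraries vGAT-positive neurons, each library being a pool of 100 fluorescent cells picked by hand with a glass pipette. The colonies carried αCaMKII-Cre, in which the promoter of a forebrain glutamatergic kinase drives the recombinase, or vGAT-IRES-Cre, in which the gene of the vesicular GABA transporter drives it. Both were bred to wild-type C57Bl/6J mice, and the animals were males of 3 to 5 months. The labels state no disease allele, treatment or brain region. Separate animals per library are not stated either, and the p-values therefore reflect library-to-library spread, which may be technical.

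Protein kinase C enzymes are serine and threonine kinases that receptors switch on through phospholipase C, which cuts a membrane lipid into diacylglycerol and a messenger that releases calcium. Conventional isoforms need both calcium and diacylglycerol, the nPKC isoforms need diacylglycerol but not calcium, and atypical isoforms need neither and are steered by protein partners. In neurons the family phosphorylates receptors, ion channels, release proteins and cytoskeletal proteins, and in many cells it feeds into the RAF, MEK and ERK kinases. Prkcz is known in brain for a short product, PKMζ, which lacks the regulatory domain, is made from a start site inside the gene and has been studied in memory.

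The start windows of Prkcz are shown because this gene had the smallest p of the family and because a value per gene adds up transcripts from all its starts, so full-length and short products could not be separated. The windows run from 250 bases before to 50 bases after each RefSeq start on GRCm38.p6, 5′ to 3′. Capitals mark CCAAT boxes (CCAAT or ATTGG) in the outermost window and the cyclic AMP response element TGACGTCA in the middle one.
Prkcz, chr4:155361379-155361678, minus strand: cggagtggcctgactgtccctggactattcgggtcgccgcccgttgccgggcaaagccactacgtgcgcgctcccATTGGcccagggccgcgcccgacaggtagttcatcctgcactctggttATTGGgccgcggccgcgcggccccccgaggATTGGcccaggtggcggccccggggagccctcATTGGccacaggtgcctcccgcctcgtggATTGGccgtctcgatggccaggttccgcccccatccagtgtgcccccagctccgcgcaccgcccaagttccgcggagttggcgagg
Prkcz, chr4:155345740-155346039, minus strand: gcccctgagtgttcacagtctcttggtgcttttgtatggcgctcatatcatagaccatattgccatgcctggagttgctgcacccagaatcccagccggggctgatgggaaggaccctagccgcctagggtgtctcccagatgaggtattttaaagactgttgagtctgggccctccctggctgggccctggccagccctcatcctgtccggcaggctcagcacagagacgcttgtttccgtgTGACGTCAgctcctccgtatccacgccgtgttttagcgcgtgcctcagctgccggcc
Prkcz, chr4:155344700-155344999, minus strand: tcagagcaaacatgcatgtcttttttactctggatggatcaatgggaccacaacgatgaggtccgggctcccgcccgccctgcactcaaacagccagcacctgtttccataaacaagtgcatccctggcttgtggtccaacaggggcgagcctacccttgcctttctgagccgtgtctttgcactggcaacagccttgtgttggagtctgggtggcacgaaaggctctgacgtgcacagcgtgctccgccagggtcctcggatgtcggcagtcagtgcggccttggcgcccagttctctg

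The outermost Prkcz window held 5 CCAAT boxes, and 0.271% of all 32851 RefSeq start windows held at least 5, while 37.4% held at least 1. The middle window, whose start lies 15.6 kb inside the first start, held TGACGTCA at bases 244 to 251 of the window, so that the element ends on the start base. Of all windows, 1.79% held this element on either strand, the element being its own reverse complement. The innermost start lies 16.7 kb inside the first start, and its window held the core TGACG at base 228, left in lower case, which as TGACG or CGTCA was in 20.8% of windows and is part of the full element. Windows were listed for 6 of the 8 genes, 9 windows in all, and among these only Prkcz windows held CCAAT boxes or the full element or its core. These matches describe letters in the windows, and no binding was measured.

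The deposited values are log2 of scaled reads, and a listed 0 stands for no reads or for a scaled value under 1. Differences below are excitatory minus inhibitory on this log2 scale. Low values were spaced by 1.3, 1.23, 0.716 and 0.872 scaled reads in excitatory 1, excitatory 2, inhibitory 1 and inhibitory 2, so that 1 read was listed at 0 in the inhibitory libraries but above 0 in the excitatory ones. The spacing puts the depth at about 61700000 to 74600000 reads a library, and numbers of reads below are estimates from it. The median difference over the 13619 tested genes was 0.52, and it was -0.01 after median-of-ratios scaling, which is called scaled below. Mbp, the gene of myelin basic protein, an oligodendrocyte product, had the highest value in every library, and that value was identical in all 4. A difference in the deposited values therefore equals the difference relative to Mbp, whose own difference was -0.54 after scaling. Markers agreed only in part with the labels. Camk2a, the gene of αCaMKII, had 16.53 and 16.46 in excitatory libraries and 15.60 and 15.66 in inhibitory ones, whereas Slc32a1, which encodes vGAT, had no value above 0 in any library, and excitatory and inhibitory therefore name libraries by their labels.

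All 8 protein kinase C genes differed between the labels, 6 higher and 2 lower in the excitatory libraries. Prkca, Prkcb, Prkce, Prkch, Prkcq and Prkcz were higher in the excitatory libraries, while Prkcd and Prkci were lower. Prkch entered the test only through the excitatory libraries, so that its labels had to be apart in value. This leaves 5 higher and 2 lower among the other 7 genes. Of the tested genes that did not enter in this way, 44.2% and 21.8% were called in those directions. The test was limma's moderated test over all tested genes (p-values adjusted by Benjamini-Hochberg, called under 0.05). It called 71.8% of all tested genes, 45.0% higher in excitatory libraries and 26.8% higher in the inhibitory libraries, so a call as such was the common outcome. The 2 labels did not overlap in value for any of the 8 genes, as for 86.4% of tested genes. The median difference of the 8 genes was 1.72, against 0.52 for all tested genes, and their median absolute difference was 2.87, against 1.62. Without genes that entered through 1 label only these medians were 1.15 for the 7 genes, against 0.52, and 2.83, against 1.18. After scaling, 5 genes were higher and 2 lower in the excitatory libraries, where 32.1% and 33.4% of 13682 tested genes were called in those directions (65.5% in either), and Prkce no longer passed. Without excitatory replicate 1 or 2 the calls were 3 higher and 1 lower, and without inhibitory replicate 1 or 2 they were 4 higher and 1 lower, fits in which the lone library of a label is assumed to vary like the other label's pair.

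**Figure D1:**
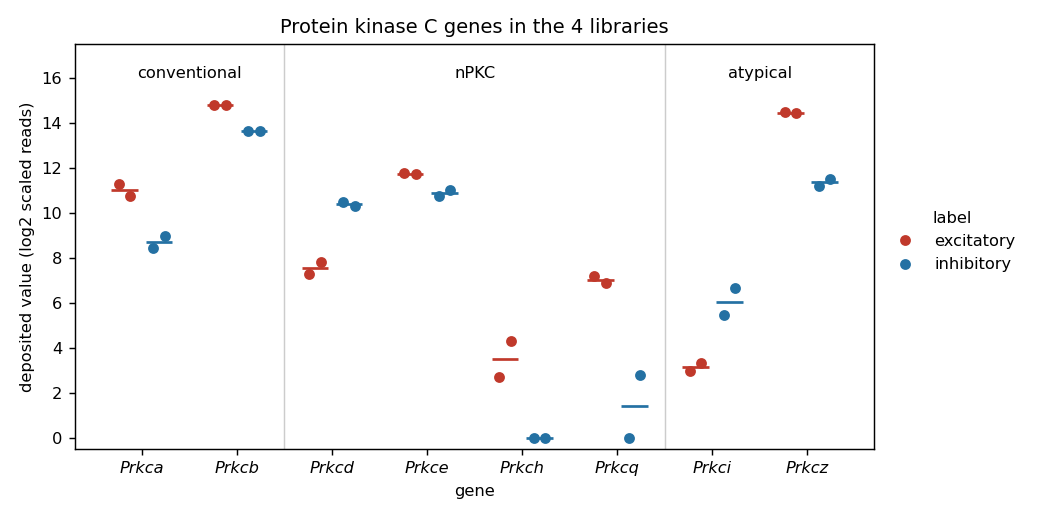
Deposited values (log2 scaled reads) of the 8 protein kinase C genes, by class. Each point is 1 library, horizontal lines are means of 2 libraries, and the excitatory pair stands left of the inhibitory pair. The pairs of each gene are apart, with Prkcd and Prkci the genes that are lower in the excitatory pair.

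Both conventional genes were higher in the excitatory libraries, and Prkcb was the most abundant gene of the family per length in every library. Prkcb, on chromosome 7 (122288751 to 122634402, plus strand, mm10), encodes PKCβ, the calcium-dependent isoform of many forebrain neurons and of B cells. It had 14.77 and 14.81 in the excitatory libraries, against 13.64 and 13.63 in the inhibitory libraries. The replicates of each label nearly coincided, and the labels were 1.12 apart at their closest. The difference of 1.15 (SE 0.083, 2.22-fold, limma adjusted p = 3.55e-04) was 0.61 after scaling (SE 0.092, 1.53-fold, adjusted p = 0.00493), and it passed in all 11 alternatives tried. Prkca, on chromosome 11 (107933387 to 108343928, minus strand), encodes PKCα, a widely expressed conventional isoform known for its part in cerebellar synaptic depression. It had 11.25 and 10.72 in the excitatory libraries, against 8.44 and 8.95 in the inhibitory libraries. Its replicates differed more than those of Prkcb, yet the labels were 1.78 apart. The difference was 2.30 (SE 0.31, 4.91-fold, limma adjusted p = 0.00249) and 1.76 after scaling (SE 0.28, 3.38-fold, adjusted p = 0.00595). The call on Prkca was lost whichever of the 4 libraries was left out, with limma adjusted p of 0.0724 and 0.0562 without excitatory replicate 1 and 2 and of 0.069 and 0.0531 without inhibitory replicate 1 and 2, within a range of 9.99e-04 to 0.0724 over its alternatives. Exons of Prkca overlap those of Apoh on the other strand over 30 bases, 0.334% of its exon bases, which a kit that does not mark strand cannot separate.

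The nPKC genes moved in both directions. Prkcd was lower in the excitatory libraries, while Prkce, Prkch and Prkcq were higher, Prkce in the deposited values only. Prkcd, on chromosome 14 (30595354 to 30626210, minus strand), encodes PKCδ, an isoform of immune cells that in brain marks neurons of the thalamus and a class of GABAergic cells in the central amygdala. It had 7.28 and 7.82 in the excitatory libraries, against 10.47 and 10.28 in the inhibitory libraries. The labels were 2.46 apart at their closest, several times the gap within either pair. The difference was -2.83 (SE 0.29, 7.09-fold higher in the inhibitory libraries, limma adjusted p = 0.00101) and -3.36 after scaling (SE 0.30, 10.3-fold, adjusted p = 0.00104). The call was lost without inhibitory replicate 1 (0.0553) or inhibitory replicate 2 (0.0503), within a range of limma adjusted p of 3.98e-04 to 0.0553.

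Some microglial markers were also higher under the inhibitory label. Of 9 such genes 5 were called higher and none lower in the inhibitory libraries, beside 26.8% and 45.0% of all tested genes. After scaling the counts were 8 and 0, beside 33.4% and 32.1%. Fewer of the 9 genes passed whenever 1 library was left out. Their summed level was 14.92 and 15.06 on the log2 scale in the excitatory libraries, against 16.09 and 15.77 in the inhibitory ones, and none of the 9 was at 0 in a label. Tmem119, a gene of resident microglia, had 5.28 and 5.30 in excitatory libraries, against 10.95 and 10.45 in inhibitory ones, and Csf1r, the receptor that microglia need to live, had 11.07 and 11.36 in excitatory libraries, against 14.08 and 13.61 in inhibitory ones. Their part in the Prkcd difference was not tested. In pools of cells, fewer cells of a type and less RNA per cell cannot be told apart.

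Prkce, on chromosome 17 (86167785 to 86657919, plus strand), encodes PKCε, an nPKC isoform of neurons that acts at presynaptic terminals and in pain pathways. It had 11.76 and 11.70 in the excitatory libraries, against 10.74 and 10.99 in the inhibitory libraries. This was the smallest gap of the family, 0.71 between the closest libraries. The difference was 0.87 (SE 0.17, 1.83-fold, limma adjusted p = 0.00894), not far above the 0.52 of the median gene, and after scaling it was 0.33 (SE 0.15, 1.26-fold) and did not pass (adjusted p = 0.119). Upper-quartile scaling gave an adjusted p of 0.127, and leaving out excitatory replicate 1 or 2 gave limma adjusted p of 0.0923 and 0.0846, within a range of 0.00659 to 0.127. A predicted transcript, AC154542.1, overlaps 472 exon bases of Prkce (6.5%) on the same strand, so its reads could have been counted with either.

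Prkcq and Prkch, the other nPKC genes, are best known outside the brain, PKCθ for signalling in T cells and PKCη for epithelia and immune cells. Prkcq, on chromosome 2 (11172108 to 11301222, plus strand), had 7.17 and 6.88 in the excitatory libraries, against 0 and 2.80 in the inhibitory libraries. The excitatory values stand for about 110 and 95.6 reads, and the inhibitory ones for at most 1 read and about 7.98 reads. Its groups were 4.08 apart, the widest gap of the 8 genes, and no fold is given because 1 library is listed at 0. It passed (SE 0.99, limma adjusted p = 0.00614, and 0.0134 after scaling), a call lost without excitatory replicate 1 (0.157) or excitatory replicate 2 (0.147), within a range of 3.91e-04 to 0.157. Prkch, on chromosome 12 (73584796 to 73778185, plus strand), had 2.70 and 4.29 in excitatory libraries but was at 0 in both inhibitory ones. These low values correspond to about 4.99 and 15.8 reads. Its limma adjusted p of 0.00685 became 0.1304 and 0.128 without inhibitory replicate 1 or 2, within a range of 0.00143 to 0.1304. Of 9 lymphocyte markers, Cd3g, Cd8a and Cd79a were among those at 0 in all 4 libraries, and the summed level of the list was 5.18 and 5.05 under the excitatory label, against 9.07 and 8.94 under the inhibitory one, opposite in direction to Prkcq. Lck, a kinase of T cells, made up most of that sum in inhibitory libraries, at 4.96 and 4.21 under the excitatory label against 9.04 and 8.92 under the inhibitory label. Of 6 endothelial markers Cldn5, Kdr, Cdh5 and Tek were at 0 in all 4 libraries.

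The atypical genes moved in opposite directions, Prkcz higher and Prkci lower in the excitatory libraries. Prkcz, on chromosome 4 (155260129 to 155361361, minus strand), encodes PKCζ and PKMζ. It had 14.49 and 14.41 in the excitatory libraries, against 11.19 and 11.51 in the inhibitory libraries. Replicates lay close together, and the labels were 2.90 apart at their closest. The difference was 3.10 (SE 0.15, 8.56-fold, limma adjusted p = 1.30e-04) and 2.56 after scaling (SE 0.13, 5.90-fold, adjusted p = 2.17e-04), and it passed in all 11 alternatives. A called difference of at least this size, in either direction, was seen for 33.5% of tested genes. In rank among all genes Prkcz stood at 552 and 569 in the excitatory libraries, against 3289 and 2836 in the inhibitory libraries. Prkci, on chromosome 3 (30995747 to 31052959, plus strand), encodes PKCι/λ, an isoform of cell polarity that most tissues express. It had 2.97 and 3.31 in the excitatory libraries, against 5.46 and 6.64 in the inhibitory libraries. The inhibitory pair was the more widely spread, and the labels were 2.15 apart. The difference was -2.91 (SE 0.53, 7.52-fold higher in the inhibitory libraries, limma adjusted p = 0.00666) and -3.45 after scaling (SE 0.51, 10.9-fold, adjusted p = 0.00457). The excitatory values rest on about 6.02 and 8.01 reads, against about 61.3 and 114 in the inhibitory libraries. The call was lost without excitatory replicate 1 (0.131) or excitatory replicate 2 (0.113), within a range of limma adjusted p of 0.00332 to 0.131.

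**Figure D2:**
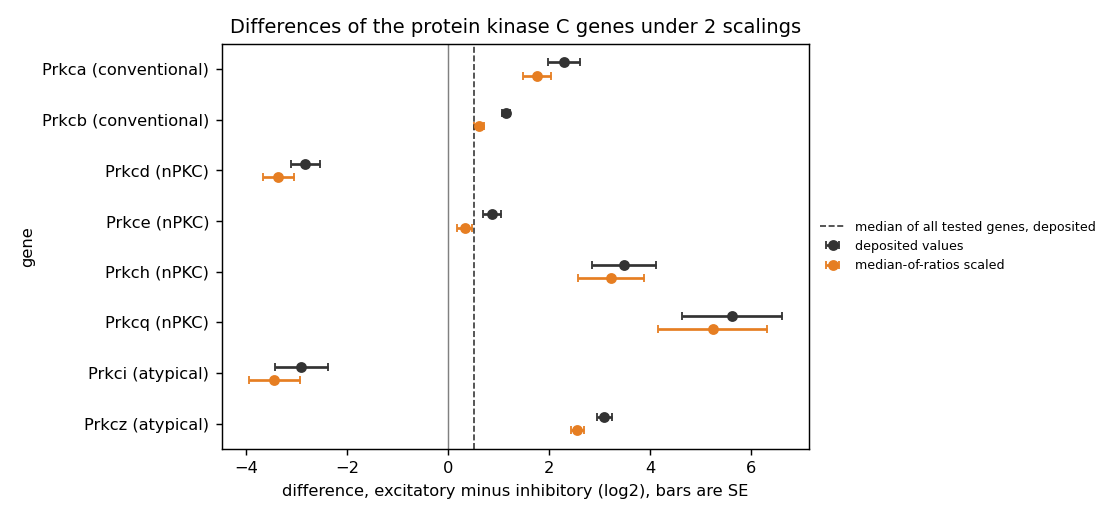
Difference of each protein kinase C gene (excitatory minus inhibitory, log2) with its SE, in the deposited values and after median-of-ratios scaling. The dashed line is the median of all tested genes in the deposited values, 0.52, and it does not apply to the scaled points. Prkce lies nearest to it in the deposited values, Prkcd and Prkci lie below 0 in both scalings, and Prkch and Prkcq, with listed zeros, have the widest bars upward of 0.

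Levels of different genes were compared as linear values per kilobase of annotated exon. In the excitatory libraries the order was Prkcb at 3695 ± 76.1 (SD, n = 2) and Prkcz at 3539 ± 132, then Prkce at 469 ± 13.6, Prkca at 229.6 ± 58.9, Prkcd at 34.4 ± 9.05, Prkcq at 18.5 ± 2.55, Prkch at 1.73 ± 1.23 and Prkci at 1.60 ± 0.262 scaled reads per kb. The ranges of Prkcb (3642 and 3749) and Prkcz (3632 and 3446) nearly met, and Prkch and Prkci overlapped. In the inhibitory libraries Prkcb stood at 1666 ± 6.53, Prkcz at 416 ± 63.5, Prkce at 257 ± 31.7, Prkcd at 240.4 ± 22.6, Prkca at 46.7 ± 11.6 and Prkci at 12.9 ± 7.09 scaled reads per kb. Prkce and Prkcd overlapped there, with 235 and 279.9 for Prkce and 256 and 224 for Prkcd. Their order depended on the length used. With the longest transcript Prkcd held 9.52% and 8.12% of the summed level in inhibitory libraries and Prkce 5.21% and 6.05%, while without length scaling Prkcd held 7.62% and 6.38% and Prkce 9.15% and 10.4%. Prkcq (0 and 0.983) and Prkch (listed at 0) came last.

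Ratios within a library do not depend on how libraries were scaled, but they do depend on the exon length taken for each gene. The change of a ratio between labels does not depend on either. Prkcz per kb was 0.997 and 0.919 times Prkcb in the excitatory libraries, against 0.222 and 0.277 times in the inhibitory libraries. With the longest transcript the same ratio was 0.671 and 0.619 in excitatory libraries and 0.149 and 0.187 in inhibitory ones, so that the near equality under the excitatory label was seen with union exons and not with this length, while the change between labels was 1.95 on the log2 scale with either length. Among the nPKC genes, Prkce per kb was 17.1 and 11.2 times Prkcd in the excitatory libraries, against 0.917 and 1.25 times in the inhibitory libraries. With the longest transcript these were 10.2 and 6.72 times in excitatory libraries, against 0.547 and 0.745 times in inhibitory ones. For the conventional pair, Prkcb per kb was 13.4 and 19.9 times Prkca in the excitatory libraries, against 43.4 and 30.3 times in the inhibitory libraries. With the longest transcript these were 28.9 and 42.9 times in excitatory libraries, against 93.3 and 65.1 times in inhibitory ones. The ratio of Prkce to Prkcb changed least of the ratios computed, at 0.131 and 0.122 in excitatory libraries and 0.141 and 0.168 in inhibitory ones.

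Added up per kb, atypical genes held 44.3% ± 0.98 (SD, n = 2) of the summed level of the 8 genes in the excitatory libraries and 16.2% ± 2.15 in the inhibitory libraries. Conventional genes held 49.1% ± 0.954 in excitatory libraries and 64.9% ± 1.91 in inhibitory ones. The nPKC genes held 6.55% ± 0.026 in excitatory libraries and 18.9% ± 0.239 in inhibitory ones. Among single genes, Prkcz held 44.3% ± 0.984 of the total in excitatory libraries and 15.7% ± 1.90 in inhibitory libraries, which left Prkci with under 1% under either label. Prkce held most of the nPKC share in excitatory libraries, at 5.87% ± 0.081 of the total, and 9.74% ± 0.886 in inhibitory ones. Prkcd held 0.432% ± 0.12 of the total under the excitatory label, against 9.12% ± 1.15 in the inhibitory libraries. Prkcb held 46.3% ± 1.65 in excitatory libraries and 63.2% ± 2.29 in inhibitory ones, although its own value was higher in the excitatory libraries. The shares are descriptions over the 8 listed genes, and no test was made on them.

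**Figure D3:**
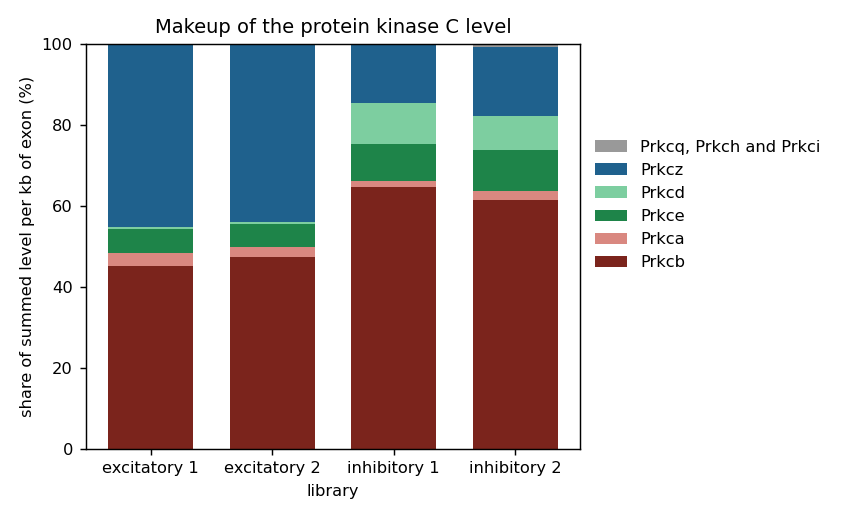
Share of the summed protein kinase C level per kb of exon (%) held by each gene in each library, excitatory libraries on the left. Prkcz holds 45% and 43.6% of the excitatory bars and 14.4% and 17.1% of the inhibitory bars. Prkcd is visible mainly in the inhibitory bars.

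For the gene with the largest absolute difference in each class, the 3 genes of most similar pattern were sought among tested genes with a mean of at least 5, by the Euclidean distance of mean-centred values over the 4 libraries. Closest to Prkcz were Cap2 (distance 0.0702), which encodes an actin-binding protein, Ppfia3 (0.116), which encodes a liprin of the presynaptic active zone, and Pdrg1 (0.124). Cap2 had 11.23 and 11.16 under the excitatory label, against 7.87 and 8.18 under the inhibitory one. Closest to Prkca were 4933421O10Rik (0.116), Mpp3 (0.129), a membrane-associated guanylate kinase gene, and Eif2b5 (0.183), a translation initiation factor gene. Closest to Prkcq were Nolc1 (0.0916), Lhx6 (0.293), a transcription factor gene of interneurons, and Mettl21a (0.327). These distances include the inhibitory values of Prkcq, a listed 0 in replicate 1 and 2.80, about 7.98 reads, in replicate 2. Lhx6 had 11.95 and 11.29 under the excitatory label, against 4.69 and 7.53 under the inhibitory one.

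Genes around protein kinase C were compared in 7 lists with 63 tested members, of which 34 were higher in excitatory libraries and 15 in inhibitory ones. These are 54.0% and 23.8% of the 63, beside 45.0% and 26.8% of all tested genes. After scaling the counts were 23 and 21, which are 36.5% and 33.3%, beside 32.1% and 33.4% of all tested genes. The counts of single lists below stand beside the same background, and their medians beside 0.52. Of the 63 genes 9 entered the test through 1 label only and so had to be apart in value, though not all were called. Without them 31 of 54 were higher in excitatory libraries and 10 in inhibitory ones. These are 57.4% and 18.5%, beside 44.2% and 21.8% of the tested genes that did not enter in this way. Counts of single lists without such genes stand beside these latter shares. Counts with a library left out are again over all 63 genes. Without excitatory replicate 1 or 2 they were 20 and 11 or 20 and 10, and without inhibitory replicate 1 or 2 they were 22 and 12 or 23 and 12. The phospholipase C enzymes, which make diacylglycerol, were split, with 5 of 11 tested genes higher in each label (4 and 6 after scaling). Their median difference was -0.36. Fewer of these genes passed in each direction whenever 1 library was left out. Plcb2, Plcb4, Plcd3 and Plcg2 entered the test through 1 label only, and among the other 7 genes 3 were higher under each label. Plcb4, an enzyme of Gq-coupled receptor signalling, had 6.80 and 6.60 in excitatory libraries but was at 0 in both inhibitory ones, and Plcd3 had 5.83 and 6.62 in excitatory libraries and 0 in both inhibitory ones. Plcb2 and Plcg2, enzymes of blood and immune cells, had 0 in each excitatory library, whereas inhibitory libraries had 10.76 and 10.12 for Plcb2 and 5.76 and 5.45 for Plcg2. Plcg1, the enzyme of growth factor receptors, had 1.40 and 0.35 in excitatory libraries, against 7.98 and 8.30 in inhibitory ones, while Plcd4 was higher in the excitatory libraries, at 13.85 and 13.61, against 11.16 and 10.71 in inhibitory ones.

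Diacylglycerol kinases, which remove the activator, were higher in the excitatory libraries for 5 of 9 tested genes and lower for 3 in both scalings. Their median difference was 1.60. Fewer passed as higher whenever 1 library was left out, while the number passing as lower did not change. Dgkd had 12.03 and 11.81 under the excitatory label, against 8.46 and 8.84 under the inhibitory one (difference 3.27, SE 0.23), and Dgkb, a neuronal member, had 11.78 and 11.70 in excitatory libraries, against 8.94 and 9.39 in inhibitory ones (2.57, SE 0.23). Dgkz was higher by 1.60 (SE 0.16), but limma's adjusted p was 0.0505 and 0.0583 with inhibitory replicate 1 or 2 left out. Dgka, a member of T cells, was at 0 in both excitatory libraries but reached 3.99 and 4.56 in inhibitory ones, and Dgke and Dgkq were lower in the excitatory libraries as well (-4.19 and -3.22). Dgka and Dgke entered the test through the inhibitory label only, and among the other 7 genes 5 were higher and 1 lower in the excitatory libraries. Among 11 tested proteins that compete for diacylglycerol through a like domain, 3 were higher in each label (2 and 4 after scaling), with 1 in each label without excitatory replicate 1 or 2, and 3 and 1 without inhibitory replicate 1 or 2. Chn2, a RAC GTPase-activating protein, had 11.90 and 12.09 under the excitatory label, against 2.51 and 2.80 under the inhibitory one. Rasgrp3, a RAS exchange factor, ran the other way at 3.70 and 4.11 in excitatory libraries, against 11.29 and 11.84 in inhibitory ones. Rasgrp1 (-0.77), Unc13a (1.25) and Prkd1 (-2.82) passed with all 4 libraries but in no fit that left 1 of them out, with limma adjusted p from 0.0514 to 0.0918. Chn1, a relative of Chn2, differed by 0.47, did not pass after scaling (adjusted p = 0.312, difference -0.07), and lost its call without excitatory replicate 1 (0.0528) or 2 (0.0553).

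Of 10 tested genes for priming and turnover of the kinases 6 were higher in excitatory libraries and 2 in inhibitory ones, but 3 and 3 after scaling and, without excitatory replicate 1 or 2 or inhibitory replicate 1, 3 higher in excitatory libraries. Mtor, a kinase that primes conventional and nPKC isoforms as part of a complex, was higher by 3.44 (SE 0.33), a call lost without inhibitory replicate 1 (limma adjusted p = 0.0543). Cdc37, the chaperone partner of kinases, was lower in the excitatory libraries at 9.83 and 9.86, against 11.79 and 11.53 in inhibitory ones, and Phlpp2, a phosphatase of primed kinases, by -2.02, a call lost without excitatory replicate 1 (0.0617) or 2 (0.066). Hsp90ab1 was higher by 0.63 and did not pass after scaling (0.09, adjusted p = 0.408). Of 5 tested anchors 2 were higher and 1 lower in the excitatory libraries (1 and 2 after scaling). Pick1 and Akap12 entered through 1 label only, and among the other 3 anchors 1 was higher and 0 were lower. Pick1, which binds PKCα and AMPA receptors, had 6.58 and 6.30 in excitatory libraries but was at 0 in both inhibitory ones, and the anchor Akap12 was at 0 in both excitatory libraries but reached 9.45 and 9.28 in inhibitory ones. Prkcdbp, named for binding PKCδ, was higher by 0.999 in the excitatory libraries, where Prkcd was lower, and did not pass after scaling (adjusted p = 0.0583).

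Partners of the atypical isoforms were higher in the excitatory libraries for 6 of 8 tested genes and lower for 1 (5 and 2 after scaling), with a median difference of 1.09, and 2 were higher without excitatory replicate 1 or 2 and 3 without inhibitory replicate 1 or 2. The adaptors that bind atypical isoforms for cell polarity moved in opposite directions. Pard6g had 10.57 and 10.08 under the excitatory label, against 1.501 and 0 under the inhibitory one, and Pard6a had 1.40 and 2.89 in excitatory libraries, against 12.43 and 12.23 in inhibitory ones. Fez1, which binds PKCζ and is known in axon growth, was higher by 1.75 (SE 0.090), and Sqstm1, a scaffold of atypical isoforms, by 1.19 (SE 0.12), a call lost without excitatory replicate 1 (limma adjusted p = 0.0605) or 2 (0.0566). Of 9 tested substrates 7 were higher in the excitatory libraries and none was lower, but after scaling 3 were higher and 1 lower, and without excitatory replicate 1 or 2 4 were higher. Add2 and Add3, adducins that cap actin filaments, were higher by 2.43 (SE 0.11) and 1.30 (SE 0.087), and passed after scaling. Snap25, a release protein, was higher by 0.62 and did not pass after scaling (0.09, adjusted p = 0.223).

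**Figure D4:**
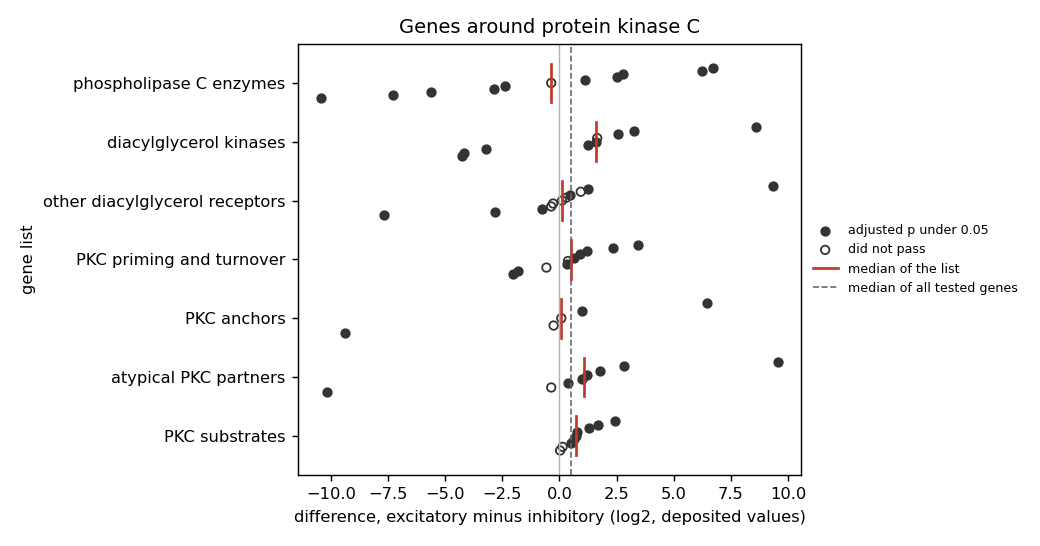
Difference (excitatory minus inhibitory, log2, deposited values) of each tested gene in 7 lists around protein kinase C. Filled points passed limma's test at an adjusted p of 0.05, red lines are list medians, and the dashed line is the median of all tested genes, 0.52. Phospholipase C enzymes run from -10.44 to 6.70 and partners of the atypical isoforms from -10.19 to 9.57, while the substrates lie between 0.03 and 2.43.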

How the data were processed

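Per the labels' protocols, picked cells were lysed for cDNA with the SMART-seq v4 kit and libraries were made with Nextera XT. TopHat, edgeR and the mm10 build are named, per the submitters' processing notes, with no version or role. Which counter and gene models served is not stated in the sources used here. The deposited tables hold log2 values per gene, scaled by the authors. Of low values, 85.4% to 97.1% lay within 0.1 step of whole multiples of 1 read when taken as a plain log2, against 1.89% to 15% with an added 1, so no added 1 was assumed.

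In R 4.3.3, limma 3.58.1 with a mean-variance trend was fitted to 13619 genes of at least 1 in at least 2 libraries (2 residual and 2.56 prior degrees of freedom). All 8 kinases entered. Fold changes are 2 to the power of the log2 difference. Read numbers are estimates, from the linear value over the step, so no counting interval is given. Exon lengths came from GENCODE M21, on the same assembly (GRCm38), which held 95.8% of symbols. Squared differences within the excitatory and inhibitory pairs had medians 51.4 and 56.6 times those of counting error, so no library was a copy. On simulated log2 values over 13619 genes, the test recovered 2% of true changes of 0.5 on the log2 scale and 42% of those of 1. It recovered 96% of those of 2 and 98% of those of 4, and made 8 false calls. The changes were given to a small part of the genes, all with high means, whereas 71.8% of tested genes were called in the data. The rates therefore do not carry over to this comparison. Nor do they cover Prkca, Prkcd, Prkch, Prkcq and Prkci, whose means lie below that range.

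Members and lists were chosen with earlier results of these data known. Named were all 8 members, up to 3 called genes per direction of each list by smallest p, and the 3 nearest patterns of 1 member per class; Mbp, the marker values given and AI846148 were named after their values were seen, and other list members are given as counts only or are not reported here. The alternatives tried were scaling by median-of-ratios or by upper quartile, no filter, a minimum of 5, an added 10, no trend, a replicate block and leaving out each library, and for class shares other lengths. Other lengths for ratios, and counts without genes tested through 1 label only, were added after seeing the data.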

Additional observations from a re-analysis of the deposited data

How the results depend on the processing

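No direction of a member was reversed in 87 alternative values. Settings that kept all libraries ended 2 of 55 calls, both on Prkce by scaling, and leaving out 1 library ended 14 of 32. Prkch could not be fitted with a minimum of 5. The leave-one-out fits called 6103 to 6551 genes in all, 3 to 4 members higher in the excitatory libraries and 1 member higher in the inhibitory libraries (1 to 1), and fewer degrees of freedom are part of their construction. The small p of Prkch without an excitatory library rests on the inhibitory zeros, which have no spread. With the replicate block 9782 genes were called, with the same 6 and 2 members. Deviations of same-numbered libraries had a correlation of -0.002 across genes. With 2 pairs this cannot show whether the numbers pair the libraries. With the longest transcript or no length scaling, the excitatory minus inhibitory share was -10.11 and -10.19 percentage points for nPKC genes (-12.3 with union exons) and 24.45 and 25.5 for atypical genes (28.1). Chosen after seeing the data, other lengths moved the ratios between members within a library but not the change of a ratio between labels. Depth limits Prkci and Prkcq, which rest on few reads in 1 label, and Prkch, which rests on few reads in both.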

Other observations

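Prkch had the same 4 values as AI846148, a gene of another name. Both are low, and whether they share reads was not tested. No other protein kinase C gene had the values of another gene.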
